A study of Homo sapiens with 12 samples.

Results

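The 10 genes described here make, activate, elongate and desaturate fatty acids. They were taken by symbol (ACLY, ACACA, ACACB, ACSL1, ACSL3, ACSL4, ELOVL5, ELOVL6, FADS1 and FADS2) from an RNA sequencing table of 4918 genes, and all 10 were in it and above 0 in every one of the 12 samples. The RNA came from A375, an established human melanoma cell line, in 4 groups of 3 samples: Control (labelled as given no treatment), SB-3CT, IFN-γ, and SB-3CT+IFN-γ, in which both agents were given together. SB-3CT is a small-molecule inhibitor of the gelatinases MMP2 and MMP9, and IFN-γ is a cytokine of activated T cells and natural killer cells that induces antigen presentation and immune checkpoint genes in tumor cells. Treatment lasted 24 h, and the treatment note speaks of a vehicle without saying which cells received it. The labels give neither doses for these samples nor whether the samples of a group were separate cultures, so the p-values measure only the spread between these samples, which may be technical. All cells share 1 line, so nothing here speaks for other melanomas. The table covers symbols from A1BG to FAM46B, and later symbols such as FASN, SCD and SREBF1 were not analysed here.

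Fatty acid synthesis starts in the cytosol, where ATP citrate lyase (ACLY) splits citrate to acetyl-CoA and the acetyl-CoA carboxylases (ACACA, and ACACB at the mitochondrial surface) turn acetyl-CoA into malonyl-CoA, the unit that fatty acid synthase adds to a growing chain. Long-chain acyl-CoA synthetases (the ACSL family) attach coenzyme A to free fatty acids, which commits them to membrane lipids, storage or oxidation. Elongases (the ELOVL family) then lengthen the chain and desaturases (the FADS family) place double bonds in it, and many of these genes are known targets of the sterol regulatory element-binding proteins, as the genes of cholesterol synthesis are.

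The stretches before the transcription start are shown for ACSL3, ACSL4 and ELOVL6, which fell with SB-3CT, and for ACSL1, which rose with IFN-γ, as context for the letters that were searched for (RefSeq, build GRCh38.p14, 150 bases up to the start, 5′ to 3′ on the strand of the gene). Capitals mark a CCAAT box (CCAAT, either strand) or an interferon-γ activated sequence (GAS, TTCNNNGAA). The ACSL1 window is 1 of 5 RefSeq starts of that gene and is shown because it holds the GAS letters. ACSL3 lies at chr2:222860886-222861035 on the plus strand, ACSL1 at chr4:184812252-184812401, ACSL4 at chrX:109733258-109733407 and ELOVL6 at chr4:110198616-110198765, these 3 on the minus strand.
ACSL3: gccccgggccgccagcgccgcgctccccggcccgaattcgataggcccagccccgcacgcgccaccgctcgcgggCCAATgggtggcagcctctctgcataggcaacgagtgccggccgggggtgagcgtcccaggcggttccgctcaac
ACSL1: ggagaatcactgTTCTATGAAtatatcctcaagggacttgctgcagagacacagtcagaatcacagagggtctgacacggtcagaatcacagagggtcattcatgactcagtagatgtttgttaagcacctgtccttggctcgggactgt
ACSL4: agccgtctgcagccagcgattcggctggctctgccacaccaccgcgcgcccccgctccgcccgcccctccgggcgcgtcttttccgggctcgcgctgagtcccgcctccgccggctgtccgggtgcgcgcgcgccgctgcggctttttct
ELOVL6: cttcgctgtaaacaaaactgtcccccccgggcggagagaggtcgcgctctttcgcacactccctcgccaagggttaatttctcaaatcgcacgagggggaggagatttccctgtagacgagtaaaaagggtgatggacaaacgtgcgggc

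All 10 members had at least 1 RefSeq window of 250 bases before to 50 after a start, 19 windows in all. The CCAAT box was in 9 of the 19 windows, from 7 members, where 34.6% of all 35116 promoters and 33.8% of those of genes in the table held it. Windows of a gene can overlap: those of ACLY hold the same CCAAT sites, so windows are not independent. The FADS2 site lies after the start, from position 5. The GC box (GGGCGG, either strand) was in 12 of the 19 windows, from 9 members, where 45.0% of all promoters and 61.3% of those of genes in the table held it. The sterol regulatory element, searched as TCACCCCAC on either strand, was in 1 window of ACSL1 (0.430% of all promoters), and the E-box CACGTG in the window of ELOVL5 (7.26%). The GAS letters were in the ACSL1 window above, from position -138 counted from the start (7.66% of all promoters). These matches describe letters and not binding. The genes themselves are given on hg19 (GENCODE release 44), the build the authors aligned to, which differs from that of the windows: ACLY (17:40023170-40086795), ACACA (17:35441927-35766927), ACSL1 (4:185676749-185747972), ACSL4 (X:108867473-108976632), ELOVL5 (6:53132196-53213977), ELOVL6 (4:110967002-111120355) and FADS1 (11:61567099-61596790) lie on the minus strand, and ACACB (12:109554392-109706031), ACSL3 (2:223725660-223809357) and FADS2 (11:61560452-61634826) on the plus strand. FADS1 and FADS2 overlap on opposite strands, in 3.25% of the exonic bases of FADS1 and 4.79% of those of FADS2, and the sources used here do not say whether reads were counted by strand.

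Expression was given as FPKM, the number of fragments scaled by transcript length and sequencing depth, so that levels of different genes can be set side by side per length. ACLY was the highest of the 10 in all 12 samples, with a mean of 51.4 FPKM. FADS1 (30.4 FPKM), ELOVL5 (27.9) and ACSL3 (25.8) followed and changed places between samples, each ranking between the second and the fourth. FADS2, with a mean of 11.3 FPKM, ranked 5 in all samples. ELOVL6 (8.06), ACSL1 (7.66), ACSL4 (6.34) and ACACA (5.12) formed a lower band with overlapping ranges. ACACB, the carboxylase of oxidative tissues, was the lowest in all 12 samples at a mean of 0.852 FPKM, near the value of 1 that is added before the logarithm is taken, so its log2 differences understate its change.

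**Figure D1:**
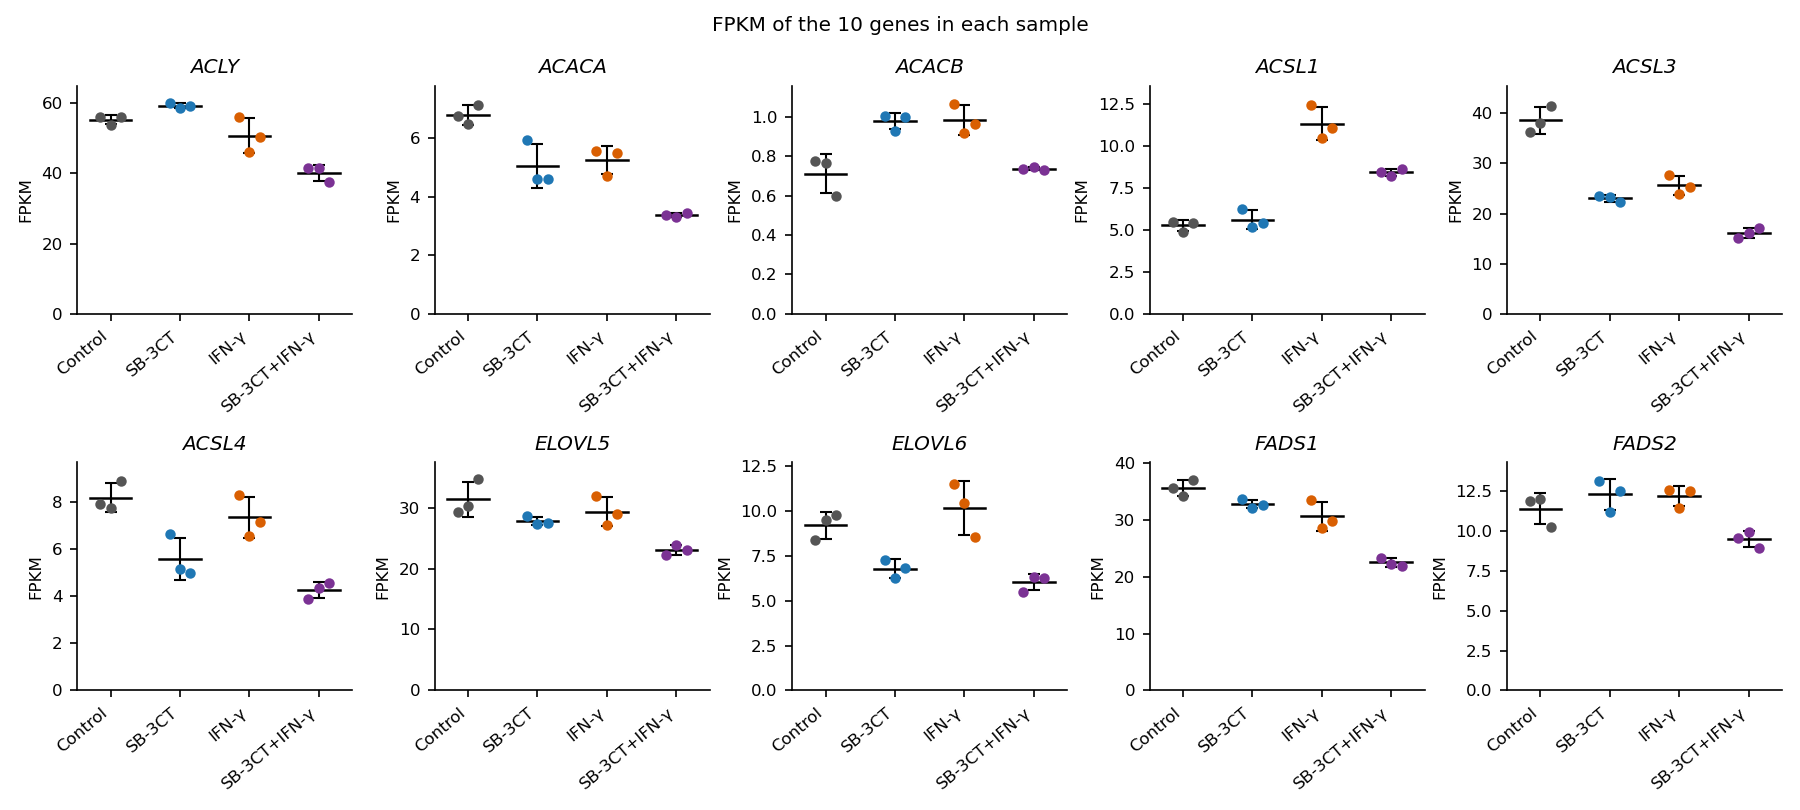
FPKM (y axis, from 0, a scale of its own in each panel) of the 10 genes in each sample (points), with the group mean (line) and SD (error bar, n = 3) for Control, SB-3CT, IFN-γ and SB-3CT+IFN-γ. In each of the 10 panels the 3 SB-3CT+IFN-γ samples lie below the 3 IFN-γ samples, and ACSL1 is the panel with the largest step up from Control to IFN-γ.

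The samples were checked in a few ways. The relative depth, read from the smallest steps in the values, lay between 87.1% and 150% of the mean of the Control samples. CXCL10, a chemokine gene induced by IFN-γ, was at most 0.05 FPKM in the 6 samples without IFN-γ and between 78.7 and 122 FPKM in the 6 samples with it. Of the 5 genes chosen as markers of A375, 4 were above 1 FPKM and DCT, a melanin synthesis enzyme, was below it in all samples, and 7 of the 8 markers of lymphoid, myeloid, endothelial or fibroblast cells in the table were below 1 FPKM in every sample. The exception was CD68, a lysosomal protein, at group means of 21.4 to 29.4 FPKM. The SB-3CT+IFN-γ samples stood apart in scale: the median log2 difference of genes with a mean of at least 1 FPKM was -0.20 against IFN-γ and -0.21 against SB-3CT, but -0.03 for SB-3CT against Control and -0.04 for IFN-γ against Control. Differences are therefore also given relative to this median and after 3 other scalings of the samples (by the median ratio, by quantiles, and with each sample's trend over transcript length removed).

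The first comparison asks what SB-3CT does to these genes without IFN-γ. ACSL3, ACSL4 and ELOVL6 fell, and the other 7 did not pass the test. In bulk RNA, fewer cells with a transcript and less of it per cell cannot be told apart, here or in the comparisons that follow. This is 3 of 10 members lower (limma with adjustment over 4918 genes), where 6.87% of all genes were lower. No member was higher at an adjusted p under 0.05, where 5.37% of all genes were. Fitted on genes with a mean of at least 1 FPKM, 4 of 9 members were lower and 0 higher, where 16.8% and 11.5% of such genes were. At an unadjusted p under 0.05, 6 members were lower and 2 higher, where 30.1% of all genes passed in either direction, and the per-gene test on FPKM called 1 lower and 0 higher, where it called 0.610% of all genes lower and 0.895% higher. The median difference of the members was -0.14 on the log2 scale, and that of the 9 with a mean of at least 1 FPKM was -0.17, beside -0.01 for all genes and -0.03 for genes of at least 1 FPKM. The 3 + 3 samples did not overlap for 8 members, 6 lower and 2 higher with SB-3CT, where 19.7% and 14.2% of all genes were separated in these directions.

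ACSL3, an acyl-CoA synthetase of the endoplasmic reticulum and of lipid droplets, had the largest fall. It stood at 36.2, 38.0 and 41.5 FPKM in Control and at 23.4, 23.3 and 22.3 FPKM with SB-3CT. The lowest Control sample was well above the highest SB-3CT sample. The group mean went from 38.6 ± 2.72 to 23.0 ± 0.636 FPKM (SD, n = 3), a log2 difference of -0.72 (standard error 0.06, adjusted p = 0.00161, limma). Under the 3 other scalings it was between -0.74 and -0.63, and it passed the test in each and with any 1 sample left out.

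ACSL4, which prefers arachidonate and other highly unsaturated fatty acids, stood at 7.91, 7.75 and 8.87 FPKM in Control and at 6.62, 5.17 and 4.99 FPKM with SB-3CT. All 3 treated samples were below all 3 controls, with the first treated sample the nearest. The difference was -0.48 (standard error 0.11, adjusted p = 0.0319, limma). ELOVL6, the elongase of saturated and monounsaturated chains, stood at 8.38, 9.49 and 9.80 FPKM in Control and at 7.30, 6.26 and 6.84 FPKM with SB-3CT. The groups again did not overlap, and the difference was -0.39 (standard error 0.08, adjusted p = 0.0288, limma). Each of these 2 calls missed the threshold when any 1 of the Control samples, SB-3CT replicate 2 or SB-3CT replicate 3 was left out, with an adjusted p of up to 0.124 for ACSL4 and 0.113 for ELOVL6 (limma), and was kept without SB-3CT replicate 1. With a sample left out, the difference stayed at -0.59 to -0.42 for ACSL4 and -0.45 to -0.34 for ELOVL6, and in the 5 fits that lost the calls 0.610% to 0.773% of all genes were lower, in place of 6.87%. With the length trend removed, ELOVL6 was at -0.29 (adjusted p = 0.0643, limma).

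ACACA, the cytosolic carboxylase, was just outside the threshold, at 6.75, 6.49 and 7.15 FPKM in Control and 5.92, 4.61 and 4.62 FPKM with SB-3CT. The 2 groups did not overlap, and the difference was -0.37 (standard error 0.10, adjusted p = 0.0523, limma), inside the threshold after median ratio scaling (-0.34, adjusted p = 0.0396, limma) and after quantile normalization (-0.29, adjusted p = 0.0465, limma). ACACB pointed the other way, at 0.773, 0.764 and 0.596 FPKM in Control and 1.01, 0.929 and 0.998 FPKM with SB-3CT. Its groups were also apart, and its difference of 0.21 (adjusted p = 0.0722, limma) was past the threshold after quantile normalization and with the length trend removed, at 0.27 and 0.34. The ratio of ACACA to ACACB within a sample, which no scaling by 1 factor per sample can move, was between 8.49 and 11.99 in Control and between 4.63 and 5.88 with SB-3CT.

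ACLY differed by 0.10 with SB-3CT, FADS2 by 0.10 and ACSL1 by 0.07, and FADS1 (-0.12) and ELOVL5 (-0.17) were slightly lower. None of these 5 passed the test on the deposited scale, and ACLY passed as higher with the length trend removed (0.17, adjusted p = 0.0318, limma).

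**Figure D2:**
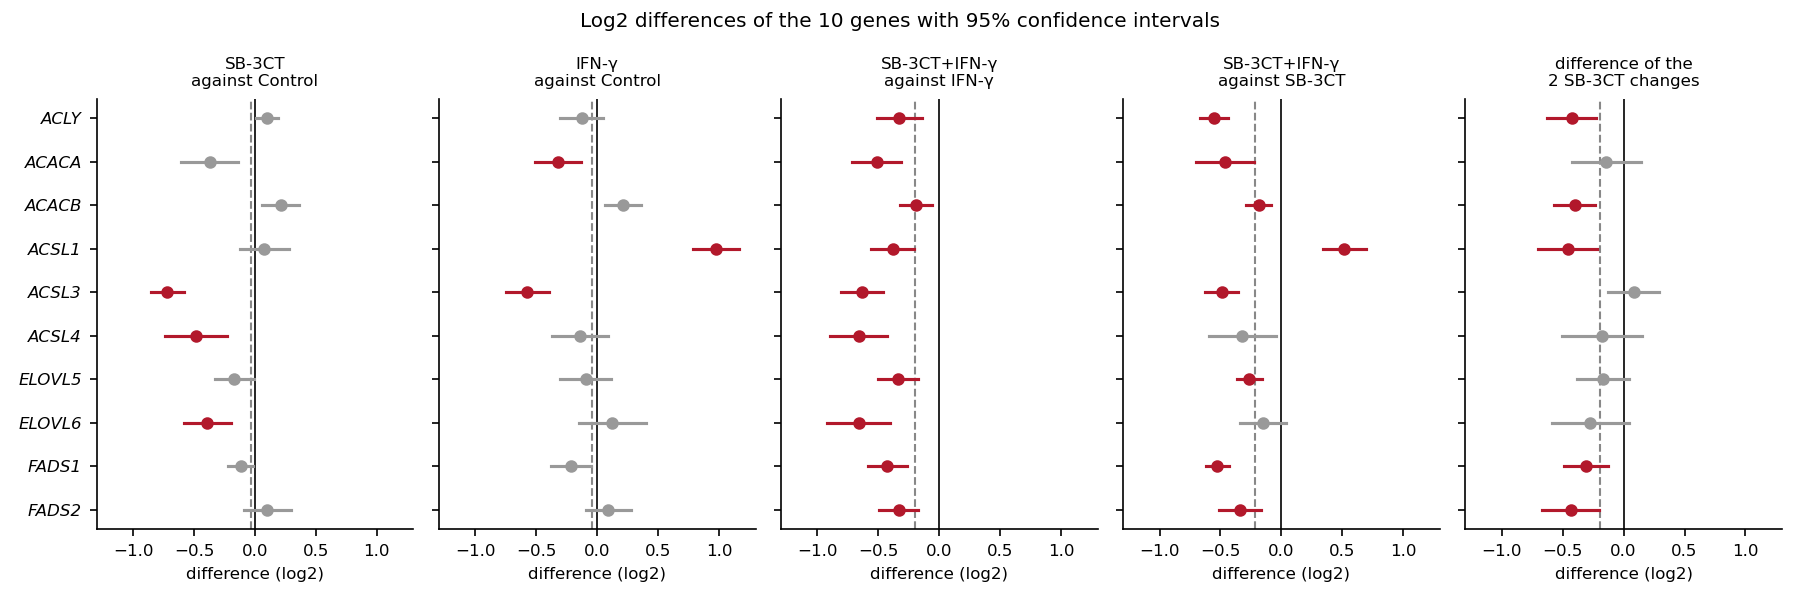
Differences on the log2(FPKM + 1) scale (x axis) of the 10 genes (y axis) in 4 comparisons and, at the right, the change with SB-3CT under IFN-γ minus the change without it. Points are limma estimates with their 95% confidence intervals, red where the adjusted p was under 0.05 and gray where it was not, and the dashed line is the median difference of genes with a mean of at least 1 FPKM, -0.20 in the third panel.

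The second comparison asks what IFN-γ alone does. ACSL1 rose 2.15-fold in mean FPKM, while ACSL3 and ACACA fell, so 1 member was higher and 2 were lower (limma), where 8.46% of all genes were higher and 11.0% lower. Fitted on genes of at least 1 FPKM, 1 of 9 members was higher and 3 lower, where 13.6% and 19.3% of such genes were. The median difference of the members was -0.11 (-0.13 for the 9 of at least 1 FPKM), beside -0.02 for all genes and -0.04 for genes of at least 1 FPKM. The groups were separated for 5 members, 2 higher and 3 lower, where 15.0% and 22.0% of all genes were.

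ACSL1, the main synthetase of liver, fat and heart and a gene of activated macrophages, stood at 5.46, 4.91 and 5.43 FPKM in Control and at 12.4, 10.5 and 11.1 FPKM with IFN-γ. Every IFN-γ sample was above every control. The log2 difference was 0.98 (standard error 0.08, adjusted p = 0.000618, limma), between 0.93 and 1.01 under the 3 other scalings. ACSL3 moved the opposite way in the same samples, from the Control values above to 27.7, 23.9 and 25.3 FPKM. Its highest IFN-γ sample was below its lowest control, with a difference of -0.57 (standard error 0.07, adjusted p = 0.00365, limma) and -0.65 to -0.53 under the other scalings. Both calls held with any 1 sample left out.

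ACACA stood at 5.55, 4.70 and 5.50 FPKM with IFN-γ, below its 3 controls, a difference of -0.32 (adjusted p = 0.0352, limma). The call was lost when any 1 Control sample or IFN-γ replicate 3 was left out, with an adjusted p of up to 0.123 (limma), and was kept under the 3 other scalings, at -0.41 to -0.28. FADS1, the desaturase that makes arachidonate, stood at 33.5, 28.5 and 29.7 FPKM with IFN-γ against 35.7, 34.2 and 37.0 FPKM in Control. These groups did not overlap either, with a difference of -0.22 that missed the threshold as deposited (adjusted p = 0.0753, limma) and passed it after each of the 3 other scalings (-0.28 to -0.18). ACACB was at 1.07, 0.918 and 0.962 FPKM with IFN-γ, above its controls by 0.21 on the log2 scale (adjusted p = 0.0599, limma), and it passed as higher after median ratio scaling (0.23, adjusted p = 0.0322, limma) and after quantile normalization (0.20, adjusted p = 0.0371, limma). ACLY (-0.13), ACSL4 (-0.14), ELOVL5 (-0.09), ELOVL6 (0.12) and FADS2 (0.09) had overlapping groups, and of these ACLY passed as lower only with the length trend removed (-0.19, adjusted p = 0.0179, limma).

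The balance among the acyl-CoA synthetases differed between the groups. ACSL5, a synthetase of the endoplasmic reticulum and mitochondria that is not one of the 10, was included here because its level under IFN-γ made it the second most abundant of the family. It stood at 0.672, 0.826 and 0.715 FPKM in Control and at 15.7, 12.9 and 14.8 FPKM with IFN-γ, a difference of 3.15 (standard error 0.09, adjusted p = 5.69e-06, limma). ACSL6 was at most 0.03 FPKM in any sample and was left out of the sum.

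Of the summed FPKM of ACSL1, ACSL3, ACSL4 and ACSL5, ACSL3 made up 73.1% ± 0.943 (SD, n = 3) in Control, 65.5% ± 2.28 with SB-3CT, 43.7% ± 0.682 with IFN-γ and 41.8% ± 0.863 with both. The ACSL1 share was between 9.53% and 10.9% in Control and averaged 15.9% ± 0.901 with SB-3CT, 19.3% ± 0.247 with IFN-γ and 21.9% ± 1.12 with both. The 4 groups did not overlap in either share. ACSL5 went from 1.40% ± 0.178 in Control to 24.6% ± 0.745 with IFN-γ and 25.3% ± 0.977 with both. The sum of the 4 genes was 52.8 ± 3.35 FPKM in Control and 58.8 ± 5.11 FPKM with IFN-γ, and 35.2 ± 1.75 and 38.6 ± 1.79 FPKM in the corresponding groups with SB-3CT. The sum was thus lower in the groups with SB-3CT, and the shares of ACSL3 and ACSL5 differed most between the groups with and without IFN-γ.

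**Figure D3:**
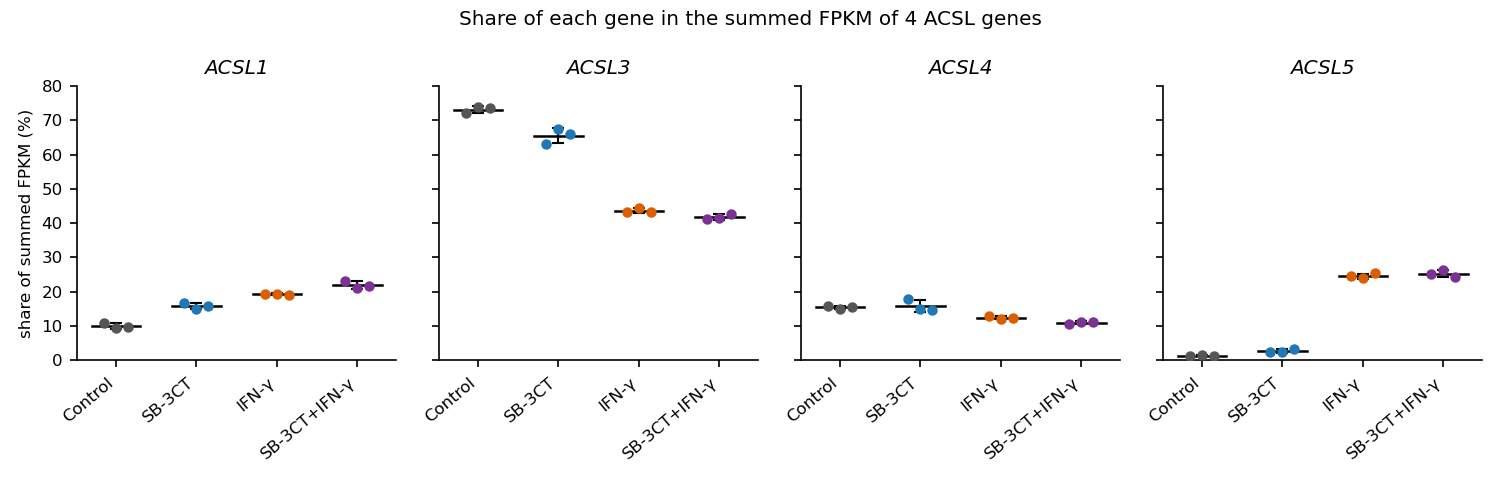
Share (y axis, %, from 0 to 80) of ACSL1, ACSL3, ACSL4 and ACSL5 in their summed FPKM in each sample (points), with group mean (line) and SD (error bar, n = 3). ACSL3 goes from a mean of 73.1% in Control to 43.7% with IFN-γ, while ACSL5 goes from 1.40% to 24.6% and ACSL1 from at most 10.9% to 19.3%.

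The third comparison, SB-3CT+IFN-γ against IFN-γ, asks what SB-3CT does in cells given IFN-γ. All 10 members were lower, between -0.66 and -0.19 on the log2 scale, and all 10 passed the test (limma), where 31.5% of all genes were lower and 6.41% higher. The samples of the 2 groups were separated for all 10, where 39.6% of all genes were separated in this direction and 9.35% in the other. The median of the members was -0.40, beside -0.09 for all genes. Among genes with a mean of at least 1 FPKM, the median of the 9 members was -0.42, beside -0.20 for all such genes, and all 9 were lower, as were 47.5% of such genes. Much of this depended on the scaling: 5 members passed as lower and 0 as higher after median ratio scaling, where 16.5% of all genes were lower. The counts were 6 lower and 0 higher after quantile normalization (14.5% of all genes lower), and 2 lower and 1 higher with the length trend removed (10.6% lower and 17.8% higher). Across all genes, 1547 were lower and 315 higher as deposited, against 811 and 763 after median ratio scaling.

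ACSL4, ACSL3 and ELOVL6 had the largest differences. ACSL4 went from 8.29, 6.56 and 7.15 FPKM with IFN-γ to 3.87, 4.36 and 4.54 FPKM with both, a difference of -0.66 (standard error 0.10, adjusted p = 0.0032, limma). ACSL3 went to 15.0, 16.2 and 17.1 FPKM, the lowest values of this gene in the 12 samples, a difference of -0.64 (standard error 0.07, adjusted p = 0.00209, limma). These were the 2 members that passed as lower under all 3 other scalings, at -0.46 to -0.30 for ACSL4 and -0.46 to -0.25 for ACSL3. Relative to the median of genes of at least 1 FPKM, they were at -0.46 and -0.44. ELOVL6 went from 11.5, 10.5 and 8.56 FPKM to 5.51, 6.30 and 6.29 FPKM, a difference of -0.66 (standard error 0.11, adjusted p = 0.00418, limma). Its call was lost after quantile normalization (-0.37, adjusted p = 0.0525, limma) and with the length trend removed (-0.25, adjusted p = 0.145, limma).

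ACACA went from the IFN-γ values above to 3.37, 3.30 and 3.44 FPKM, less than any other sample held. The difference was -0.51 (standard error 0.09, adjusted p = 0.00413, limma), or -0.31 relative to the median of genes of at least 1 FPKM, and -0.07 (adjusted p = 0.303, limma) with the length trend removed. The transcript of ACACA is the longest of the 10, at 10007 bases. FADS1 went to 23.3, 22.3 and 21.9 FPKM, all below its IFN-γ samples, with a difference of -0.42 (adjusted p = 0.00392, limma), -0.19 after median ratio scaling and -0.08 (adjusted p = 0.209, limma) with the length trend removed.

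The other 5 members lay between -0.38 and -0.19, where the median of genes of at least 1 FPKM was -0.20. ACLY stood at 56.0, 46.1 and 50.3 FPKM with IFN-γ and at 41.6, 41.4 and 37.6 FPKM with both, a difference of -0.33 (adjusted p = 0.0162, limma). ACSL1 stood at 8.48, 8.21 and 8.64 FPKM with both, below its 3 IFN-γ samples and above its 3 controls, with a difference of -0.38 from IFN-γ (adjusted p = 0.00703, limma). ELOVL5, the elongase of polyunsaturated chains, differed by -0.34, FADS2, the first desaturase of the polyunsaturated route, by -0.33, and ACACB by -0.19. Relative to the median of genes of at least 1 FPKM, these 5 were at -0.13 (ACLY), -0.18 (ACSL1), -0.14 (ELOVL5), -0.13 (FADS2) and 0.01 (ACACB). None passed after median ratio scaling, ACLY (-0.24) and ELOVL5 (-0.22) passed after quantile normalization, and with the length trend removed ACLY turned to 0.01 and ACACB passed as higher (0.25, adjusted p = 0.0127, limma). The ACLY call was also lost without IFN-γ replicate 1 or 3 or SB-3CT+IFN-γ replicate 3, and the ACACB call without IFN-γ replicate 1 or 3 or any 1 SB-3CT+IFN-γ sample, with an adjusted p of up to 0.0725 and 0.0798 (limma).

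**Figure D4:**
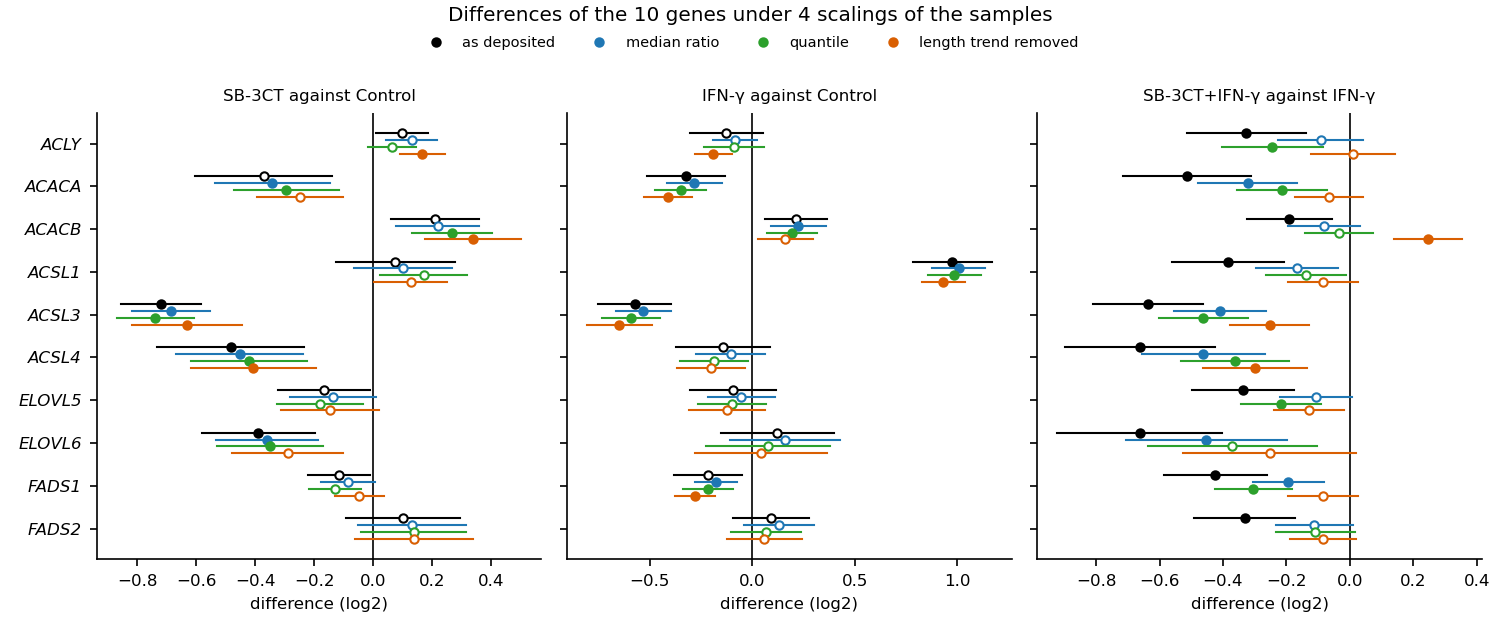
Log2 differences (x axis) of the 10 genes (y axis) in 3 comparisons with the samples as deposited, after median ratio scaling, after quantile normalization and with each sample's trend over transcript length removed. Lines are 95% confidence intervals and filled points have an adjusted p under 0.05; ACSL3 is filled under all 4 scalings in all 3 panels, while in the third panel filled lower points go from 10 genes as deposited to 2 with the length trend removed.

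The fourth comparison, SB-3CT+IFN-γ against SB-3CT, asks what IFN-γ does in cells given SB-3CT, and it shares its SB-3CT+IFN-γ samples with the third. ACSL1 rose and 7 members fell (limma), where 7.85% of all genes were higher and 32.7% lower. Fitted on genes of at least 1 FPKM, 1 of 9 members was higher and 7 lower, where 11.4% and 50.6% of such genes were. The median of the members was -0.33 (-0.34 for the 9 of at least 1 FPKM), beside -0.11 for all genes and -0.21 for genes of at least 1 FPKM. The groups did not overlap for 9 members, 1 higher and 8 lower, where 9.84% and 41.9% of all genes were separated in these directions. After median ratio scaling, 1 member was higher and 3 lower, where 13.4% of all genes were higher and 11.1% lower.

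ACSL1 went from 6.25, 5.19 and 5.39 FPKM with SB-3CT to the 8.21 to 8.64 FPKM given above, a difference of 0.52 (standard error 0.07, adjusted p = 0.00318, limma) that was larger, at 0.68 to 0.74, under the 3 other scalings. ACLY went from 60.1, 58.6 and 59.3 FPKM with SB-3CT, the highest values of any member, to the 37.6 to 41.6 FPKM of the combined samples. The difference of -0.55 (standard error 0.05, adjusted p = 0.000643, limma) was -0.40 to -0.31 under the 3 other scalings. FADS1 went from 33.6, 32.2 and 32.6 FPKM, with a difference of -0.52 (standard error 0.04, adjusted p = 0.000402, limma) and -0.39 to -0.28 under the other scalings. ACSL3 differed by -0.49 (standard error 0.05, adjusted p = 0.00153, limma) and by -0.31 to -0.25 under the other scalings.

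These 4 calls held under each alternative tried. ACACA (-0.46), FADS2 (-0.34), ELOVL5 (-0.26) and ACACB (-0.19) passed as deposited, and each missed the threshold after median ratio scaling. ACSL4 (-0.32, adjusted p = 0.0642, limma) did not pass. ELOVL6 was the member whose groups overlapped, with a difference of -0.15 that turned to 0.06 to 0.08 under the 3 other scalings.

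Whether the change with SB-3CT differed between cells with and without IFN-γ was tested over all 12 samples. For 5 members, ACACB, ACLY, ACSL1, FADS1 and FADS2, the change was more negative under IFN-γ (limma), where 17.6% of all genes had such a difference, and for 0 members it was more positive, where 4.74% of all genes were. Fitted on genes of at least 1 FPKM, 4 of 9 members were more negative and 0 more positive, where 31.1% and 7.77% of such genes were. At an unadjusted p under 0.05, 0 members were more positive and 5 more negative as deposited, where 36.1% of all genes passed in either direction. More positive ones then numbered 1 after median ratio scaling, 1 after quantile normalization and 2 with the length trend removed. In these settings 27.6%, 26.9% and 29.4% of all genes passed unadjusted in either direction. At an adjusted p under 0.05, lower members numbered 2 after median ratio scaling (5.59% of all genes), 3 after quantile normalization (7.02%) and 0 with the length trend removed (5.31%, and 9.70% of all genes higher). For ACLY the change with SB-3CT was 0.10 without IFN-γ and -0.33 with it, a difference of -0.43 (standard error 0.09, adjusted p = 0.0098, limma). It was -0.31 to -0.16 under the 3 other scalings and missed the threshold with the length trend removed (adjusted p = 0.135, limma). The differences were -0.40 for ACACB, -0.46 for ACSL1, -0.31 for FADS1 and -0.43 for FADS2, and each of these was closer to 0 under the 3 other scalings. The call of FADS1 was also lost without Control replicate 2 or SB-3CT+IFN-γ replicate 3 (adjusted p of up to 0.0586, limma). ACSL3 changed by about as much in both settings on the deposited scale, with a difference of 0.08 (95% confidence interval -0.13 to 0.29), but after quantile normalization (0.28, adjusted p = 0.0474) and with the length trend removed (0.38, adjusted p = 0.0196, limma) its fall with SB-3CT was smaller under IFN-γ. For ACSL4 the difference was -0.18 (95% confidence interval -0.51 to 0.15) and for ELOVL6 -0.27 (-0.59 to 0.04).

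Ratios within a sample compare related members without any scaling of samples by 1 factor. A trend over transcript length can still move them, as for ELOVL5 (2765 bases) and ELOVL6 (6570 bases). For SB-3CT+IFN-γ against IFN-γ, ELOVL5 and ELOVL6 differed by -0.34 and -0.66 as deposited, and by -0.13 and -0.25 with that trend removed. FADS1 and FADS2 differed by -0.42 and -0.33 as deposited, and by -0.08 and -0.09 with it removed. The ratio of ACACA to ACACB was 9.74 ± 1.96 (SD, n = 3) in Control, and 5.16 ± 0.650 with SB-3CT, 5.35 ± 0.323 with IFN-γ and 4.58 ± 0.141 with both. Every treated sample was below every control. The ratio of ELOVL5 to ELOVL6 was 3.41 ± 0.186 in Control, 4.10 ± 0.242 with SB-3CT, 2.92 ± 0.414 with IFN-γ and 3.82 ± 0.191 with both, so the samples with SB-3CT were all above those without it, the highest of which reached 3.54. The ratio of FADS1 to FADS2, neighbors on chromosome 11, was 3.15 ± 0.403 in Control, 2.67 ± 0.167 with SB-3CT, 2.51 ± 0.146 with IFN-γ and 2.37 ± 0.115 with both. Both groups with IFN-γ lay below the 3 controls in this ratio, and the SB-3CT group overlapped them. These ratios are given as a description and were not tested.

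**Figure D5:**
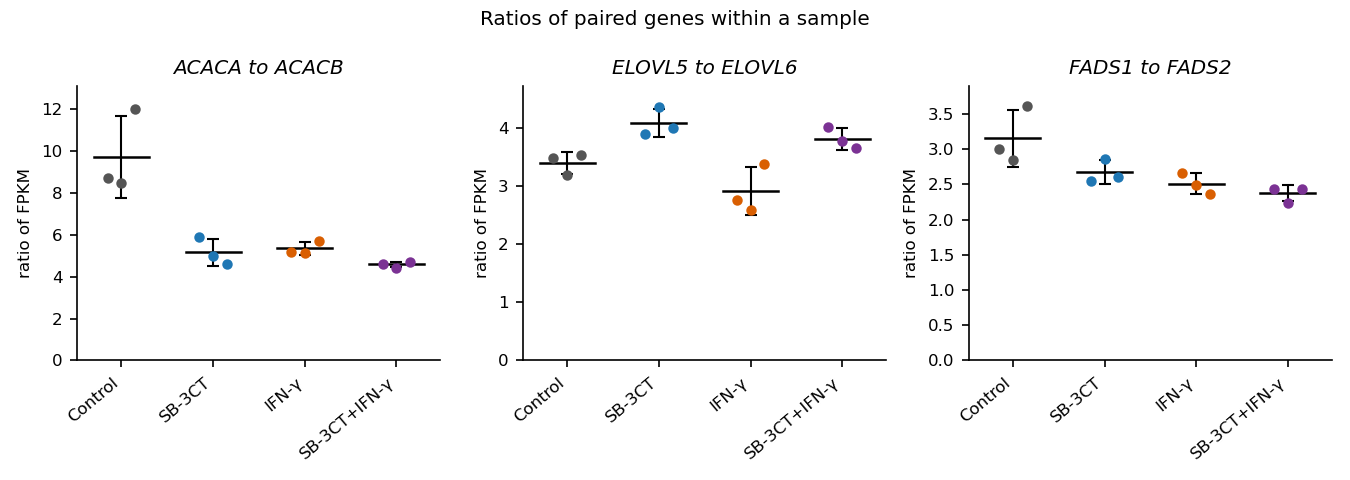
Ratio of FPKM (y axis, from 0) of ACACA to ACACB, ELOVL5 to ELOVL6 and FADS1 to FADS2 in each sample (points), with group mean (line) and SD (error bar, n = 3). ACACA to ACACB is between 8.49 and 11.99 in the 3 controls and at most 5.88 in the other 9 samples, and ELOVL5 to ELOVL6 is higher in the 6 samples with SB-3CT than in the 6 without.

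Other genes of fatty acid and lipid metabolism gave a setting for the members. The counts of each list below stand beside the shares of all genes. As deposited, 5.37% of all genes were higher and 6.87% lower with SB-3CT, and 8.46% and 11.0% with IFN-γ. These shares were 6.41% and 31.5% for the combination against IFN-γ (15.5% and 16.5% after median ratio scaling), and 7.85% and 32.7% against SB-3CT. Of 19 other genes of fatty acid synthesis, activation, elongation and desaturation in the table, 0 were higher and 1 lower with SB-3CT, 4 higher and 1 lower with IFN-γ, and 1 higher and 6 lower with SB-3CT+IFN-γ against IFN-γ (3 and 3 after median ratio scaling). Against SB-3CT, the combination had 4 of them higher and 2 lower. Their median difference from IFN-γ was -0.07, beside -0.40 for the members and -0.09 for all genes. For those with a mean of at least 1 FPKM it was -0.08, beside -0.42 for the members and -0.20 for all such genes. CBR4, a reductase of mitochondrial fatty acid synthesis, fell with SB-3CT (-0.49, adjusted p = 0.0109, limma) and with IFN-γ (-0.50, adjusted p = 0.00261, limma). ACSS1, a mitochondrial acetyl-CoA synthetase, rose with IFN-γ (0.42, adjusted p = 0.0104, limma). As deposited, FADS3 rose when SB-3CT was added to IFN-γ (0.30, adjusted p = 0.00657, limma), in the comparison in which FADS1 and FADS2 fell. On the same scale ACSL5 fell (-0.52, adjusted p = 0.00374, limma) and so did ELOVL4 (-0.41, adjusted p = 0.0219, limma). ACSL5 was at -0.31 to -0.26 under the 3 other scalings and passed in each. AACS, which makes acetoacetyl-CoA in the cytosol, fell with IFN-γ in SB-3CT-treated cells (-0.70 as deposited, adjusted p = 0.000462, limma). The median of genes of at least 1 FPKM in that comparison was -0.21.

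Of 13 acyl-CoA thioesterases and acyl-CoA binding proteins, 1 was higher and 1 lower with SB-3CT, 2 and 3 with IFN-γ, and 2 and 5 with SB-3CT+IFN-γ against IFN-γ (5 and 1 after median ratio scaling), and 1 and 4 against SB-3CT. Of all genes, 31.5% were lower in the third comparison and 32.7% in the fourth. Against IFN-γ and as deposited, ACBD5 (-0.58) and ACBD3 (-0.52) fell. DBI, the abundant acyl-CoA binding protein (0.49, adjusted p = 0.00904, limma), and ACOT13 (0.51, adjusted p = 0.00342, limma) rose, opposite to all 10 members on that scale. With the length trend removed, the members ACACB (0.25) and ACLY (0.01) were not lower either. DBI fell with IFN-γ alone (-0.43, adjusted p = 0.0394, limma). Of 21 genes of glycerolipid and phospholipid synthesis, 4 were higher and 1 lower with SB-3CT, 4 and 2 with IFN-γ, and 2 and 9 with SB-3CT+IFN-γ against IFN-γ (5 and 3 after median ratio scaling), and 1 and 7 against SB-3CT. IFN-γ lowered CDS1, a CDP-diacylglycerol synthase, from 2.89 ± 0.275 to 0.781 ± 0.0337 FPKM (-1.12, adjusted p = 0.00022, limma) and raised AGPAT3, an acyltransferase of phospholipid synthesis, from 9.24 ± 0.239 to 16.3 ± 1.22 FPKM (0.75, adjusted p = 0.000809, limma), and both held under the 3 other scalings.

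Of the 5 cholesterol synthesis genes in the table, 4 were lower in each of the 4 comparisons of 2 groups and 0 higher (limma), with medians of -0.29 for SB-3CT, -0.45 for IFN-γ, and -0.45 and -0.61 for the combination against IFN-γ and against SB-3CT. After median ratio scaling 3 or 4 were lower and 0 or 1 higher. Of all genes, 6.89% to 16.5% were then lower and 6.97% to 15.5% higher. DHCR7, the last reductase of the pathway, stood at 19.9 ± 1.16 FPKM in Control, 10.1 ± 0.233 with SB-3CT, 9.90 ± 0.126 with IFN-γ and 6.08 ± 0.677 with both, beside 38.6, 23.0, 25.6 and 16.1 FPKM for ACSL3 in the same groups. ACSL3 was the member with the largest fall with SB-3CT. Of the 10 members, 6 had negative differences with SB-3CT and 6 with IFN-γ, so not all moved as ACSL3 did. The cholesterol synthesis gene outside the 4 falls, EBP, named after its values were seen, differed by 0.14 with SB-3CT and -0.12 with IFN-γ. It did not pass as deposited. With SB-3CT after median ratio scaling, 4 of the 5 genes passed as lower and 1 as higher. With IFN-γ and the length trend removed, all 5 passed as lower, where 15.0% of all genes did. Of 29 fatty acid oxidation genes, 3 were higher and 1 lower with SB-3CT, 1 and 2 with IFN-γ, and 2 and 7 with SB-3CT+IFN-γ against IFN-γ (9 and 1 after median ratio scaling), and 3 and 13 against SB-3CT. In these last 2 comparisons 31.5% and 32.7% of all genes were lower. CPT1A, the carnitine palmitoyltransferase that malonyl-CoA inhibits, rose with SB-3CT (0.32, adjusted p = 0.0291, limma), and its change with SB-3CT was more negative under IFN-γ by 0.72 on the log2 scale (adjusted p = 0.0032, limma). Under the 3 other scalings this difference was -0.54 to -0.43 and passed in each. As deposited, the median of this difference over genes of at least 1 FPKM was -0.19. Other oxidation genes went both ways as deposited. With SB-3CT, ECI1 rose (0.31, adjusted p = 0.0469, limma) and ACADM fell (-0.28, adjusted p = 0.045, limma). The difference between the changes was -0.48 for ACAA2 (adjusted p = 0.0315, limma) and 0.44 for ECI2 (adjusted p = 0.00559, limma).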

How the data were processed

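The submitters' processing notes name HISAT2 2.0.5, StringTie 1.3.3 and the hg19 build. The authors deposited 1 table of 4918 genes by 12 samples on the log2(FPKM + 1) scale, on which all tests were run, and FPKM values were obtained by reversing the logarithm and subtracting the pseudocount of 1. FPKM carries no read totals, so counting error cannot be given. In each sample the low values (up to 0.15 FPKM) came in steps, and the most frequent ratio between samples gave a relative depth. The ratios of 66 of 66 pairs of samples lay within 0.05 (log2) of those implied by these depths.

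Groups came from the sample labels. Each comparison of a pair of groups used limma 3.58.1, run in R 4.3.3 (empirical Bayes with a variance trend, two-sided, unpaired, Benjamini-Hochberg adjustment over all 4918 genes, threshold 0.05) on their 6 samples, and the change with SB-3CT under IFN-γ minus that without it was fitted on all 12. The design had been written for FPKM or its logarithm. The members and the 5 other gene lists were chosen with earlier results of these data known, and so give no independent support. Besides the members and CXCL10, the text names genes from the 2 largest rises and falls of each list and comparison with an adjusted p under 0.05, a mean of at least 1 FPKM and no overlap between groups.

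Alternatives were a pseudocount of 0.1, genes with a mean of at least 1 FPKM, median ratio scaling, quantile normalization, removal of each sample's trend over transcript length (a length was found for 4428 symbols directly and 416 by an older symbol, 98.5% of all), all 12 samples in one fit, a block for the replicate number, no variance trend, a per-gene test on FPKM, and leaving out each sample. Those of the shares and ratios were added after seeing the data. Gene coordinates are from GENCODE release 44 on hg19, and promoter windows from RefSeq on GRCh38.p14. Whether reads were assigned by strand is not given in the sources used here, so FADS1 and FADS2, which overlap, and ACLY (3.63% of exonic bases) and ELOVL6 (2.37%), which overlap genes on the opposite strand, are less certain.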

Additional observations from a re-analysis of the deposited data

Results flagged for a closer look

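For 5 of the 10 genes the change with SB-3CT under IFN-γ differed from the change without IFN-γ (limma, interaction term over all 12 samples), each on the log2(FPKM + 1) scale and each more negative under IFN-γ. The difference was -0.40 for ACACB (adjusted p = 0.0073), -0.43 for ACLY (adjusted p = 0.0098), -0.46 for ACSL1 (adjusted p = 0.0156), -0.31 for FADS1 (adjusted p = 0.0218) and -0.43 for FADS2 (adjusted p = 0.0169, limma for all 5). All 5 calls were lost with the length trend removed. Those of ACSL1, FADS1 and FADS2 were also lost after median ratio scaling, and those of FADS1 and FADS2 after quantile normalization. As deposited, the median difference between the changes over genes of at least 1 FPKM was -0.19, and 17.6% of all genes were called more negative. Fitted on genes of at least 1 FPKM, 4 of 9 members were called more negative, where 31.1% of such genes were. Groups of 3 samples were not examined for single samples far from the others.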

How the results depend on the processing

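Leaving out 1 sample gave 360 values for 50 differences of single genes, of which 334 kept their direction and side of the threshold, 24 lost the call, 2 gained one and 0 turned. The other alternatives gave 425 values, with 341 kept, 46 calls lost, 24 gained and 14 turned; why single values moved was not tested. In this paragraph the percentages are the share of all genes called in the same direction. Lower members with SB-3CT numbered 3 as deposited, 1 with the replicate block (2.70%), 1 in the per-gene test on FPKM (0.610%), and 1 to 4 with a sample left out (0.610% to 12.4%). Higher members with SB-3CT numbered 0, then 2 with the length trend removed (7.65%), 1 after quantile normalization (7.04%) and 1 with all 12 samples in one fit (6.43%). For IFN-γ against Control, lower members numbered 2, then 4 with the length trend removed (15.0%), 1 in the per-gene test (6.87%) and 1 to 3 with a sample left out (5.82% to 10.8%), and higher members 1, then 2 after median ratio scaling (11.8%), after quantile normalization (10.3%), with all 12 samples in one fit (10.1%) and with no variance trend (8.95%). For SB-3CT+IFN-γ against IFN-γ, the 10 lower members (31.5%) became 5 (median ratio, 16.5%), 6 (quantile, 14.5%) and 2 (length trend removed, 10.6%). The last had 1 higher (17.8%). Against SB-3CT, the 7 lower members (32.7%) became 3 (median ratio, 11.1%), 4 (quantile, 16.96%) and 4 (length trend removed, 16.4%). For the difference between the changes, the 5 lower members (17.6%) became 2 (median ratio, 5.59%), 3 (quantile, 7.02%) and 0 (length trend removed, 5.31%). In that difference, 1 member was higher after quantile normalization (5.998%) and 1 once the length trend was taken out (9.70%).

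The following turned to positive values. With the length trend removed, ACACB was at 0.25 and ACLY at 0.0099 against IFN-γ, and ACACB at 0.069 against SB-3CT. ELOVL6 against SB-3CT was at 0.067 (median ratio), 0.055 (quantile) and 0.0802 (length trend removed). In the difference between the changes, ACACA was at 0.019, 0.081 and 0.18 in that order, ACSL4 at 0.061 (quantile) and 0.11 (length trend removed), ELOVL5 at 0.0304 (median ratio) and 0.017 (length trend removed), and ELOVL6 at 0.037 (length trend removed).

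Replicate numbers are shared between groups, but not every pair with the same number deviated together, so the numbers were not taken to pair the samples: the correlation of their deviations over genes was -0.01 to 0.07 for SB-3CT against Control, -0.03 to 0.17 for IFN-γ against Control, -0.07 to 0.04 for the combination against IFN-γ and -0.39 to -0.09 against SB-3CT. With the replicate block, members called numbered 1 lower for SB-3CT (2.70% of all genes), 1 higher and 2 lower for IFN-γ (7.22% and 8.54%), 9 lower against IFN-γ (26.9%), 1 higher and 6 lower against SB-3CT (5.77% and 21.9%), and 5 lower for the difference between the changes (17.2%). The values hold no read totals, 3 samples a group limit the precision, and differences of ACACB and other genes near 1 FPKM are understated on this scale.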
